A study of Homo sapiens with 2 samples.

Results

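Interferon-stimulated genes and the IRF transcription factors that drive them were followed in AsPC-1 cells kept uncompressed or under compression. AsPC-1 is an established human pancreatic adenocarcinoma line, and it was grown here in 3 dimensions beneath an overlay of collagen gel. The uncompressed group is 1 culture left without load for 24 h, and the compressed group is 1 culture held at 2.9 mmHg for the same 24 h. Neither group carried a further treatment or genetic change according to the labels, and each was read on a single whole-transcript array. The gene set was fixed by symbol and holds 39 genes, 7 IRF factors and 32 effector genes, out of 14884 genes with a named probe set. Of the 39, 34 had a named probe set (all 7 IRF factors and 27 effector genes), and MX1, IFI6, IFI27, PARP9 and PARP14 were not analysed here. Each of the 34 was measured by 1 named probe set, so no member has a second reading on the same array.

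Interferons signal through cell surface receptors and the kinases JAK1 and TYK2 to STAT proteins, which join IRF9 in a complex that binds the interferon-stimulated response element (ISRE). The ISRE lies close to the start site of many antiviral genes, and IRF1, IRF3, IRF5, IRF7 and IRF8 bind related sequences, whereas IRF2 competes with IRF1 and represses many of the same promoters. In epithelial tumour cells the programme can run at a low level without infection, and its products degrade viral RNA, block translation, tag proteins with ISG15 or hold virions at membranes.

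The ISRE core was searched as GAAANNGAAA, or TTTCNNTTTC on the other strand, in RefSeq promoter windows (GRCh38.p14) that run from 250 bases before to 50 bases after each start site. Both strands were searched, and matches could overlap. A window was found for 30 of the 39 genes. The core was present in at least 1 window of 22 of 26 effector genes and of 0 of 4 IRF factors (IRF1, IRF5, IRF8 and IRF9), and 1195 of 27305 genes with a window held it (4.38%; 3.57% of all 35116 windows). A match describes the letters and is not a measured binding site. The 9 stretches below were chosen because their genes share the core and yet differed in opposite directions or hardly at all between the cultures. Each is written 5′ to 3′ on the strand of its gene, ends at or before the last base upstream of the start site, and has the core matches in capitals; the 2 matches of ISG15 overlap.

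IFIT3 at chr10:89327855-89327904, plus strand: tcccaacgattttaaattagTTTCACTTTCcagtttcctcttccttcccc

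IFIT1 at chr10:89392500-89392549, plus strand: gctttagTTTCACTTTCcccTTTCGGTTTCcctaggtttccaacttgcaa

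IFIT5 at chr10:89414529-89414567, plus strand: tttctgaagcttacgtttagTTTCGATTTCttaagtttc

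ISG15 at chr1:1013370-1013419, plus strand: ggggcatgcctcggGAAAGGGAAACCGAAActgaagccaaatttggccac

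SAMD9 at chr7:93118086-93118135, minus strand: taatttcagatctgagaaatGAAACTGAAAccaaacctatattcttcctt

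DDX60 at chr4:168318776-168318825, minus strand: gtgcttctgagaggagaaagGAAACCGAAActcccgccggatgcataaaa

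IFITM1 at chr11:313980-314029, plus strand: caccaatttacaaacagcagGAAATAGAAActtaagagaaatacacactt

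IFITM3 at chr11:320866-320915, minus strand: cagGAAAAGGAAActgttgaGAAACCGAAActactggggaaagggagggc

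EPSTI1 at chr13:42992262-42992311, minus strand: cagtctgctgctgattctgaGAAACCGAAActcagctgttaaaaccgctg

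The interferon programme did not move as a block between these 2 cultures. IRF8 was lower in the compressed culture by 1.74-fold and TRIM21 was higher by 1.51-fold, and no other member reached 1.5-fold, a log2 difference of 0.58. IRF7, IRF9 and IRF2 read higher by 0.36 to 0.49, whereas IRF1, IRF3 and IRF5 read lower by smaller amounts. Among the 27 measured effector genes 13 had a positive (48.1%) and 14 a negative difference, where 44.3% of all named genes were positive. All values are log2 RMA signals, a normalised probe set brightness on which 1 unit is a doubling. Differences are the compressed minus the uncompressed array. With 1 array per condition there is no replicate, no test and no p-value, and precision is limited by the number of arrays.

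To set dim genes apart, a gene was kept when its mean over both arrays reached 4.79, the median over all named genes. This left 17 of the 34 members, 12 effector genes and 5 IRF factors, beside 7442 kept genes in all. Another 15 members lay below that floor on both arrays. Whether they were above background is unknown, since no detection calls were used, and RMA compresses differences near background. IRF7 and EPSTI1 reached the floor on 1 array only.

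Among the kept members 1 of 17 was at least 1.5-fold higher and 1 of 17 at least 1.5-fold lower, where 3.95% of all kept genes were higher and 1.12% lower. With no level filter the counts were again 1 higher and 1 lower, of 34, against 3.76% and 2.83% of all named genes. At a smaller log2 difference of 0.32, 5 of the 17 kept members were higher (IRF2, IRF9, IFIT3, SAMD9 and TRIM21) and 3 were lower (IRF8, IFIT5 and IFITM1). The shares of all kept genes at that size were 13.5% and 8.28%. By sign, 7 of the 12 kept effector genes were positive and 5 negative, where 50.8% of all kept genes were positive. The middle 50% of kept genes had differences from -0.15 to 0.18, and 7 of the 17 kept members lay inside that span, 5 above it and 5 below it. Below the floor the span over all genes ran from -0.26 to 0.15, and 9 of 17 members lay inside it, with 4 above and 4 below.

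**Figure D1:**
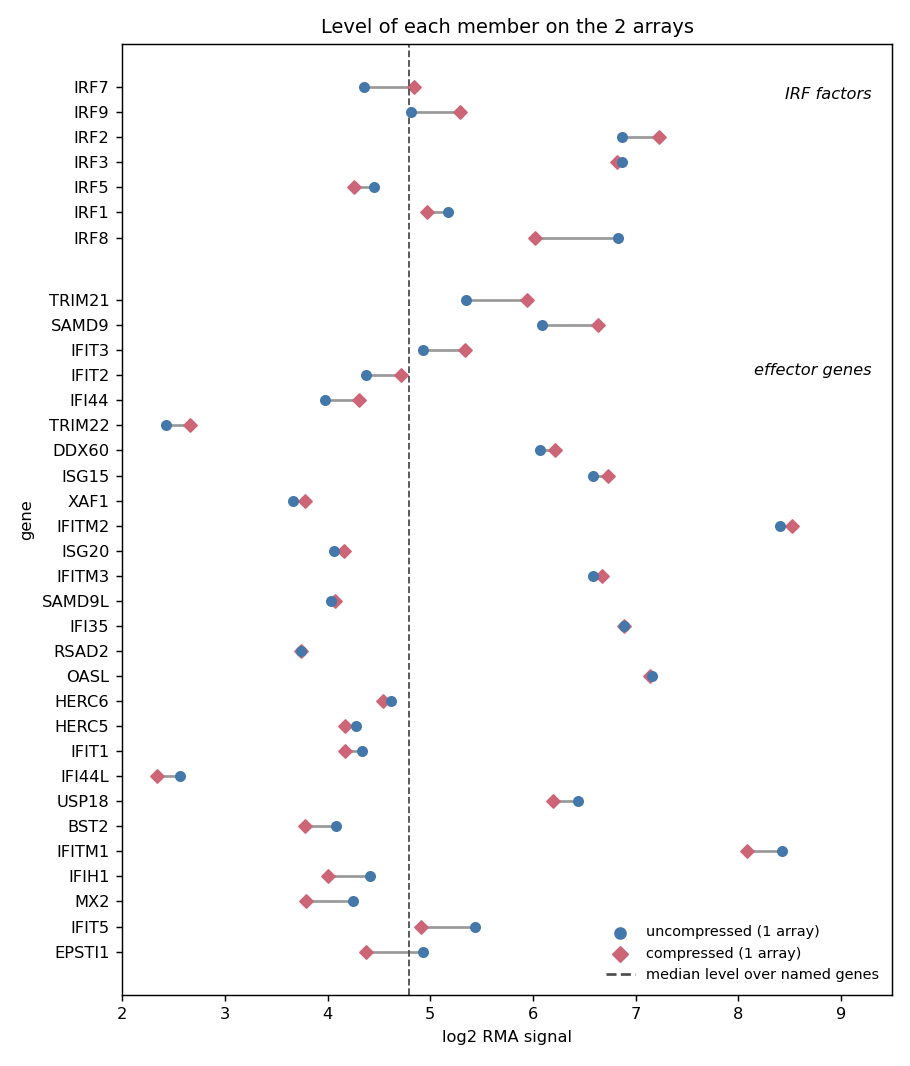
Level of each of the 34 measured members on the uncompressed array (circles) and the compressed array (diamonds) in log2 RMA signal, with IRF factors above, effector genes below, and each class ordered by its difference. The dashed line is the floor of 4.79; IRF8 shows the longest shift to lower signal (6.83 to 6.02) and TRIM21 the longest to higher signal (5.34 to 5.94), while IFI35, RSAD2 and OASL have nearly overlapping points.

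The 7 IRF factors ran from -0.80 to 0.49 by difference and the 27 effector genes from -0.55 to 0.60. IRF8, a factor best known from myeloid and B cells that also acts downstream of interferon gamma, read 6.83 on the uncompressed and 6.02 on the compressed array, a difference of -0.80. That was the 19th lowest difference among the 7442 kept genes. IRF1, the immediate target of interferon gamma signalling, read 5.17 and 4.97, a difference of -0.20. The compressed array was thus the lower one for both factors, by unequal amounts.

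IRF9, the DNA-binding partner of the STAT proteins in the ISRE-binding complex, read 4.82 on the uncompressed and 5.29 on the compressed array. Its difference of 0.47 ranked 497th from the top among kept genes. IRF7, which amplifies type I interferon production once induced, read 4.35 and 4.84, a difference of 0.49. The uncompressed level of IRF7 lay below the floor, so no fold is given for it. IRF2, the repressor, read 6.87 and 7.23, which is 1.29-fold higher in the compressed culture.

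IRF3, which is present before infection and is switched on by phosphorylation rather than by transcription, read 6.87 on the uncompressed and 6.81 on the compressed array. Its difference of -0.05 lies inside the middle 50% of kept genes. IRF5, a factor of Toll-like receptor signalling, read 4.45 and 4.25, below the floor on both arrays. Over the 5 kept IRF factors the median difference was -0.05, and over the 12 kept effector genes it was 0.10, against 0.01 for all kept genes. The median of the effector genes was therefore higher by 0.15, and by 0.051 over all 27 effector genes and 7 IRF factors with no level filter. These medians rest on few genes, and the gap between them is smaller than the span of the middle 50% of kept genes. That span is one of single genes, not of medians, so it does not show how far such medians vary.

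**Figure D2:**
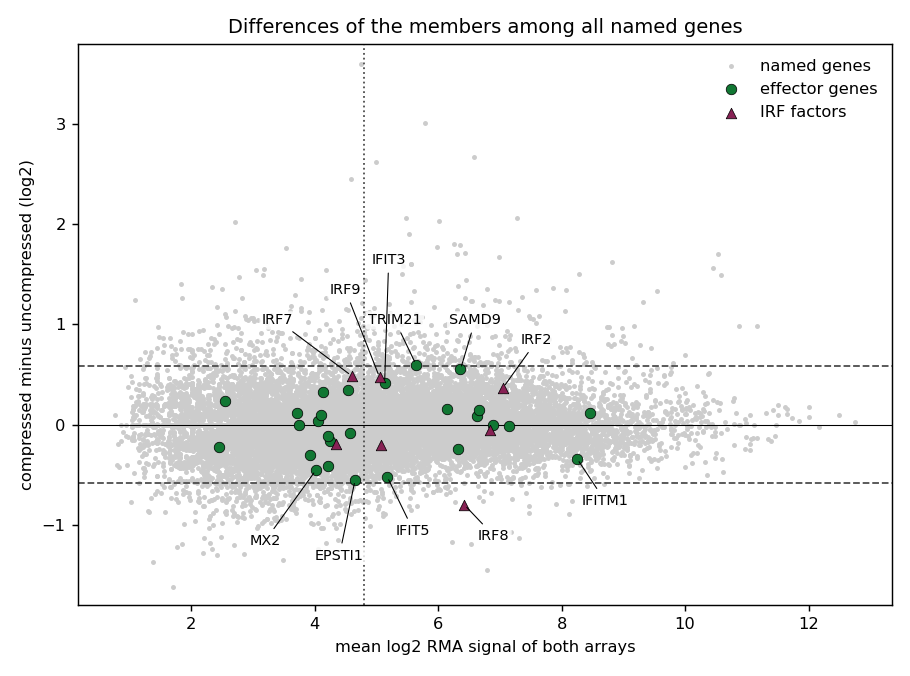
Difference compressed minus uncompressed (log2) against the mean log2 RMA signal of both arrays for all 14884 named genes (grey), effector genes (green circles) and IRF factors (purple triangles). Dashed lines mark 1.5-fold (0.58 in either direction) and the dotted line the floor of 4.79; IRF8 lies below the lower line, TRIM21 just above the upper line, and all other members lie between them.

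IRF8 is best known from myeloid and B cells, so leukocyte markers were read beside it in these cultures of a carcinoma line. Of 16 such markers 8 were named and 4 of these (CD14, CSF1R, CD48 and CD53) lay below the floor on both arrays; none was listed at 0. The median of the 8 log2 levels was 4.39 on the uncompressed and 4.49 on the compressed array, below the floor on each. The 4 kept markers split evenly by direction. SPI1, a myeloid factor that partners IRF8, read 5.35 and 4.88, and LYZ, which encodes lysozyme and is also made by secretory epithelium, read 9.04 and 8.82. TYROBP, a signalling adaptor of myeloid cells, read 4.77 and 5.24, and CD68, a lysosomal protein that other cells also make, read 8.45 and 9.26. SPI1 and LYZ thus differed in the direction of IRF8, and TYROBP and CD68 in the opposite direction. Their part in the IRF8 difference was not tested. Of the epithelial markers 9 of 12 were named. KRT18 (11.54 and 11.71), KRT19 (10.78 and 10.79), EPCAM (10.77 and 10.43) and CEACAM6 (10.88 and 10.87) lay far above the floor. KRT8 (6.13 and 6.21) and CEACAM5 (5.45 and 5.51) lay nearer to it. KRT7 (3.36 and 3.78) and AGR2 (4.16 and 2.81) lay below it on both arrays. AGR2 had the largest difference of the 9, to lower signal on the compressed array. TSPAN8, a tetraspanin of digestive epithelium, read 8.31 and 7.52 and was the 1 kept marker of that list past 1.5-fold. All 3 named endothelial markers of 5 lay below the floor, and of the 2 named fibroblast markers of 7, DCN read 1.79 and 1.82 and LUM 9.75 and 9.39.

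The IFIT proteins bind foreign RNA and hold back its translation, and their genes lie in one cluster on chromosome 10. In the order IFIT2, IFIT3, IFIT1, IFIT5 along the RefSeq assembly (GRCh38.p14) their differences were 0.35, 0.42, -0.17 and -0.52. IFIT3, which stabilises IFIT1 in a complex, read 4.93 on the uncompressed and 5.34 on the compressed array, 1.33-fold higher. IFIT5, which binds RNA carrying a 5′ triphosphate, read 5.43 and 4.91, 1.43-fold lower. These genes of one cluster, both kept and both with the TTTCNNTTTC core printed above, differed in opposite directions. IFIT2 (4.37 and 4.72) and IFIT1 (4.34 and 4.17) lay below the floor on both arrays.

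In the ISG15 system the genes above the floor, ISG15 and USP18, showed small differences only. ISG15, the ubiquitin-like modifier itself, read 6.59 on the uncompressed and 6.74 on the compressed array, a difference of 0.15. USP18, the protease that removes ISG15 and also restrains the type I receptor, read 6.44 and 6.19, a difference of -0.24. The ligase HERC5, which attaches ISG15 in human cells, read 4.28 and 4.17, and its relative HERC6 4.62 and 4.54, each below the floor. The activating enzyme gene UBA7 (4.15 on both arrays) and the conjugating enzyme gene UBE2L6 (3.91 on the compressed array, a difference of -0.09), added for their role after their values were seen, were below it too. None of these 6 genes differed by as much as 0.32.

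Among the membrane restriction factors the IFITM genes did not share a direction. IFITM1, the family member found mostly at the cell surface, read 8.42 on the uncompressed and 8.08 on the compressed array, 1.27-fold lower. IFITM2 and IFITM3, which act in endosomes, read 8.41 and 8.52, and 6.59 and 6.67, differences of 0.11 and 0.09. The IFITM genes are closely similar neighbours, and how the array divides signal among them is uncertain. BST2, the tetherin that holds budding virions, read 4.08 and 3.78, below the floor.

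The RNA sensors and helicases were close to level where they could be read. OASL, an oligoadenylate synthetase-like protein that enhances RIG-I signalling, read 7.16 on the uncompressed and 7.14 on the compressed array. DDX60, a helicase of the antiviral response, read 6.07 and 6.22, a difference of 0.15. IFIH1, which encodes the double-stranded RNA sensor MDA5, read 4.42 and 4.01, both below the floor.

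Of the other antiviral effectors, SAMD9 and TRIM21 stood highest by difference. SAMD9, a cytosolic factor that restricts poxviruses, read 6.09 on the uncompressed and 6.64 on the compressed array, 1.46-fold higher and just under the size rule. Its paralogue SAMD9L read 4.03 and 4.07, below the floor. TRIM21, a cytosolic antibody receptor and ubiquitin ligase, read 5.34 and 5.94, which placed it 276th from the top among kept genes. After loess correction or repeated quantile normalisation TRIM21 fell short of 1.5-fold, with a lowest value of 0.55. TRIM22, another ligase of this family, read 2.43 and 2.66, far below the floor.

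Of the 27 measured effector genes 15 lay below the floor, which by its construction has 50% of all named genes under it. MX2, a dynamin-like GTPase that blocks nuclear entry of viruses, read 4.25 on the uncompressed and 3.79 on the compressed array. RSAD2, which encodes viperin, read 3.74 on both, and the exonuclease gene ISG20 read 4.06 and 4.16. IFI44 and IFI44L, paralogues and neighbours on chromosome 1, read 3.98 and 4.30, and 2.56 and 2.34. XAF1, a pro-apoptotic factor, read 3.66 and 3.78. These 6 genes were below the floor on both arrays. EPSTI1 read 4.93 and 4.38, a difference of -0.55 with the compressed level below the floor. IFI35, a partner of NMI, was kept and read 6.89 on both arrays.

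The members with an ISRE core split in both directions. Of the 17 measured members with the core, 8 had a positive and 9 a negative difference, with a median of 0.00 and a range from -0.55 to 0.60. Among the 8 of these that were kept, 6 were positive (TRIM21, SAMD9, IFIT3, DDX60, ISG15 and IFITM3) and 2 negative (IFITM1 and IFIT5), with a median of 0.15. The 8 measured members with a window but without the core had a median of -0.04, and IRF8 and IRF9, the outermost of them, differed by -0.80 and 0.47. Among the 4 of these that were kept, 1 was positive and 3 negative, with a median of -0.10. These 4 were IRF1, IRF8, IRF9 and IFI35, so core and gene class largely coincide among the kept members. Over all kept genes 50.8% were positive with a median of 0.01, and over all named genes 44.3% with a median of -0.01. The sets split by core hold few genes, and the part of the core in their differences was not tested. Among measured members, matches lay between 164 bases upstream of the start site (IFI44L) and 24 bases into the transcript (TRIM21). A second motif, the gamma-activated site TTCNNNGAA, which reads the same on both strands, was present in the windows of IRF1 and IRF9 and of 8 of 26 effector genes, and in 9.38% of all genes with a window. IRF1 and IRF9 differed in opposite directions.

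**Figure D3:**
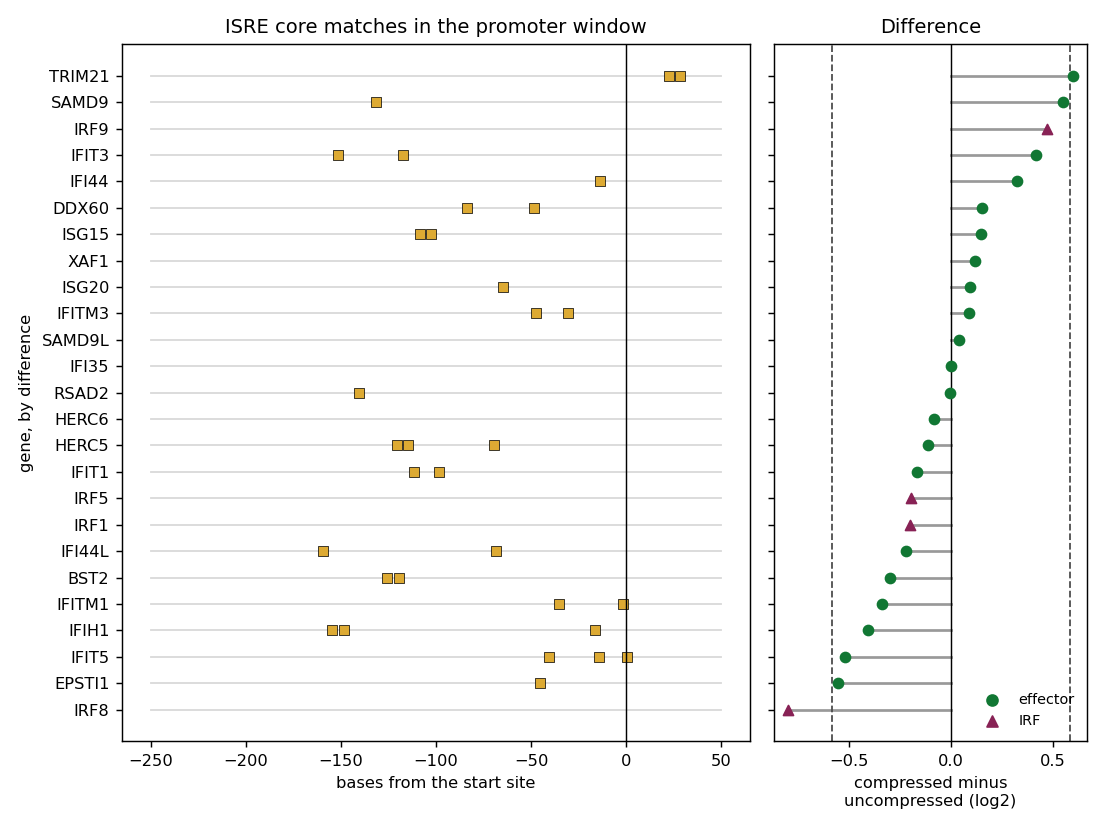
Left, positions of ISRE core matches (squares) from 250 bases before to 50 bases after the start site for the 25 measured members with a promoter window; for a gene with several windows the first with a match is drawn. Right, the difference of the same gene (log2; circles are effector genes, triangles IRF factors, dashed lines 1.5-fold); genes with matches occur from the top (TRIM21, 0.60) to near the bottom (EPSTI1, -0.55).

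The kept genes listed for the pathway layers upstream of the members leaned to higher signal on the compressed array. Both lists were chosen with earlier results of these data known, so this lean is a description only. Of the receptors and kinases 5 of 11 genes were named and 4 were kept. These 4 had positive differences with a median of 0.24, and 0 of 4 passed 1.5-fold. The interferon gamma receptor chains IFNGR1 and IFNGR2 differed by 0.31 and 0.36, and the kinase JAK1 by 0.17. The other named genes were the kinases JAK2 and TYK2, so no STAT gene and no type I receptor chain was read. Of 17 sensors and adaptors 14 were named and 8 kept, 7 of the 8 with a positive difference (6 after loess correction or repeated quantile normalisation) and a median of 0.21. The 1 past 1.5-fold was TICAM1, the adaptor of TLR3 known as TRIF, which read 5.59 on the uncompressed and 6.25 on the compressed array, 1.58-fold higher. The same share of positive differences over all kept genes was 50.8%. At least 1.5-fold higher were 3.95% of all kept genes, and 1.12% were at least 1.5-fold lower. None of the 10 listed interferon genes was analysed here.

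A list of IRF4 and proteins that bind IRF2 or resemble such a protein had 4 measured genes. It held the gene with the largest difference of the interferon pathway lists. Like the other lists it was chosen with earlier results of these data known, so this place is a description only. IRF2BP2, a corepressor recruited by IRF2, read 6.93 on the uncompressed and 8.02 on the compressed array, 2.12-fold higher, on its brighter probe set. Its second probe set read 6.85 and 6.93, a difference of 0.09, so the reading depends on the probe set. IRF2BPL, a relative, read 4.84 and 5.48, 1.56-fold higher. IRF2BP1 differed by -0.42, and IRF4, a factor of lymphocytes, was below the floor on both arrays. Of these 3 kept genes 2 were thus higher by 1.5-fold and 0 lower, where 3.95% of all kept genes were higher and 1.12% lower. The IRF2BP2 count is that of its brighter probe set. With the mean of all probe sets 2 of 3 were again higher, IRF2BP2 only barely.

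Genes that dampen the response and a wider set of induced genes stayed close to level. Of 14 negative regulators 5 were named and 3 kept. Among the kept ones 0 of 3 passed 1.5-fold, where 3.95% of all kept genes were higher and 1.12% lower. TRIM24, NLRX1 and SOCS3 differed by 0.23, -0.10 and -0.08. A second, dim probe set of SOCS3 read 2.19 and 2.93. With the mean of all probe sets SOCS3 dropped below the floor, and the median of the remaining 2 genes was 0.066 in place of -0.08. Of 55 further interferon-stimulated genes 22 were named and 12 kept. Their median difference was 0.03, with 6 positive and 6 negative, and it had no settled sign (-0.024 after repeated quantile normalisation). The 1 kept gene past 1.5-fold was SAMHD1, a nucleotide triphosphohydrolase that starves reverse transcription, which read 5.84 on the uncompressed and 5.25 on the compressed array, 1.51-fold lower. GBP4, a guanylate-binding GTPase, differed by 0.66 but read 2.37 and 3.03, below the floor on both arrays. The chemokine genes CXCL9, CXCL10 and CXCL11, classic targets of interferon gamma that were named for that role after their values were seen, read between 1.92 and 3.16, below the floor on both arrays.

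**Figure D4:**
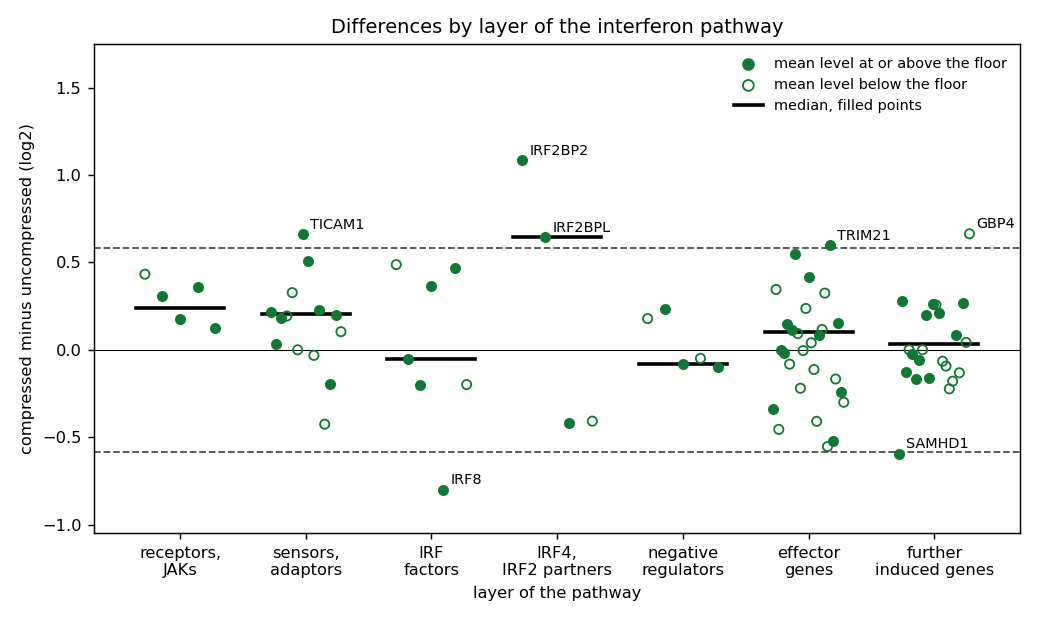
Difference compressed minus uncompressed (log2) for the measured genes of 7 layers of the interferon pathway; filled points are genes with a mean level at or above the floor, open points genes below it, and bars the median of the filled points. Dashed lines mark 1.5-fold. The lowest median is -0.08 for negative regulators (0.066 for 2 genes with the mean of all probe sets). The highest is 0.65 for IRF4 and the IRF2 partners (3 kept genes, 0.59 with the mean of all probe sets). The effector genes have a median of 0.10.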

How the data were processed

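Total RNA of 2 AsPC-1 cultures was measured on 1 GeneChip whole-transcript array each. The deposited values are log2 signals. The submitters' processing notes name RMA and Transcriptome Analysis Console as the authors' tools; their versions and the build are not given in the sources here. RMA removes a change shared by all genes. Probe sets were named from the platform annotation (16098 with 1 gene, 0 with several), with current symbols from RefSeq (GRCh38.p14). One value per gene was taken from the probe set with the highest mean. Genes at or above the median mean level were kept, and differences were counted at 1.5-fold. Named genes are all members, and of each further list those past 1.5-fold or up to 3 with the largest difference; others are background for a role or marker. Members and lists were chosen with earlier results of these data known. The size rule was tested on simulated data. Promoter windows came from RefSeq. Alternatives were other level filters, the mean of probe sets, loess correction (span 0.3), median centring, repeated quantile normalization, other sizes, and means for medians. Python 3.11.15, NumPy 2.4.6, pandas 2.3.3 and statsmodels 0.14.6 were used.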

Additional observations from a re-analysis of the deposited data

How the results depend on the processing

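Single members moved by at most 0.08 under loess correction, median centring and repeated quantile normalization; the mean of probe sets could not move them, since each has 1. The sign held for 33 of 34 members; RSAD2, close to 0, was the exception. The median difference of effector genes, 0.10, was -0.0030 with no level filter, 0.042 with a filter at the 75th percentile and 0.040 after repeated quantile normalization. The median of IRF factors, -0.05, was -0.12 after repeated quantile normalization and 0.16 with the filter on the brighter array, which was chosen after seeing the data and admits IRF7 and EPSTI1 only through the array on which each is high. Effectors minus IRF factors, 0.15, became 0.051 with no filter, 0.10 at the 75th percentile and -0.068 on the brighter array. The count of effector genes higher was 0 under the 75th percentile filter, loess correction, repeated quantile normalization and a size of 2-fold, and 3 at a log2 size of 0.32, where 2 were lower. Of the IRF factors 0 were lower at 2-fold and 2 were higher at 0.32. The cause of these shifts was not tested. With 1 array per condition no array could be left out. No paired analysis was possible because each condition has 1 sample. Signal over background is unknown for the 15 members below the floor on both arrays.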

Other observations

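The 5 effector genes that were not analysed for expression, MX1, IFI6, IFI27, PARP9 and PARP14, each had a promoter window, and each of these genes held at least 1 ISRE core match. IFI6 held 3 distinct matches, and MX1 and IFI27 held 2 each.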
